A study of Mus musculus with 12 samples.

Results

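The comparison described here is the one between KY-1 cells given a Myb vector and KY-1 cells given a GFP vector, taken across all genes. It uses the 7 arrays labelled KY-1 out of the 12 arrays of the series, chosen by cell line alone and not by any measured value. KY-1 is a mouse natural killer (NK) cell line of genotype p53KO, so both groups lack p53, the tumour suppressor. The control group, 3 arrays, received a vector that encodes green fluorescent protein (GFP) alone. The other group, 4 arrays, carried GFP joined by a P2A peptide to FLAG-tagged Myb (GFP-P2A-FLAGMyb). All cells were grown in medium with human IL-15 at 200 U/mL and sorted for GFP before RNA was taken, so both groups are transduced, sorted populations of 1 line. Not given in the sources used here were the promoter of the vector, the time between transduction and sorting, the age of the cultures and whether replicates were separate transductions. The series also holds 5 arrays of a second line, KY-2 (2 GFP and 3 Myb), which entered only the estimate of spread and the test of whether an effect differed between lines.

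Myb encodes a DNA-binding transcription factor that blood progenitors need for growth and that most lineages lower as they mature. It binds a short motif, of which CAACTG and TAACGG are examples, and acts together with partners such as C/EBP factors and the coactivator p300. NK cells are innate lymphocytes that kill through granzymes and perforin, signal through activating receptors such as NKp46 and release chemokines and interferon gamma. The microRNAs miR-15 and miR-16 are known to repress Myb, and the series belongs to work on that circuit in NK cell maturation.

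Values are log2 expression levels per gene, each read from 1 probe set, and array medians lay between 5.31 and 5.42. A level below 5.31 is called here below the array medians, since the table holds no detection calls, and the size of a change that starts or ends there is uncertain. GFP arrays 1 and 2, and Myb arrays 3 and 4, were so alike that each pair was averaged and counted as 1 replicate, which left 2 GFP and 3 Myb replicates. The robust SD of log2 differences was 0.043 to 0.047 within those pairs and 0.102 to 0.172 in every other pair of a group, over 10624 probe sets. Of 12 NK marker genes tested, 10 stood above a log2 level of 8 in KY-1 with GFP. None of the T cell (12), B cell (6), myeloid (10), erythroid (5), stromal (5) or other innate lymphocyte (3) markers did, and 1 of 10 mast cell and basophil markers did, the cytokine receptor gene Kit. In the bulk RNA of a sorted line, a change in the share of cells that express a gene cannot be told apart from a change per cell.

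KY-1 already expressed Myb with the GFP vector, and the Myb vector raised it about 3-fold. The GFP arrays stood at 7.96, 7.92 and 8.04, and the Myb arrays at 9.59, 9.57, 9.55 and 9.54. The groups did not overlap and the Myb arrays lay close together, which fits the labels of all 7 arrays. The mean went from 7.99 ± 0.07 (SD, n = 2) to 9.57 ± 0.02 (SD, n = 3), a 2.99-fold difference (limma adjusted p = 3.89e-06). Native and vector-derived transcript were not separated by this probe set.

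Across the genome few genes were called, from 2 GFP and 3 Myb replicates. With the Myb vector 122 genes were higher and 122 lower at a limma adjusted p under 0.05, which is 0.612% of the 19938 genes tested in each direction and 1.22% in both together. With KY-1 arrays alone in the fit the counts were 53 and 53, and with trended moderation 242 and 242. They were 231 and 211 among 8869 genes with a mean above log2 6, and 403 and 420 with all 12 arrays as separate replicates. An unadjusted limma p under 0.05 was found for 2192 of the 19938 genes. The number of calls therefore does not give the breadth of the response. Most changes were small. The median fold was 1.51 among genes that rose and 1.53 among genes that fell, and 64 and 70 of them changed at least 1.5-fold, 0.672% of the genes tested. At least 2-fold changes were seen for 25 higher and 12 lower genes, and at least 4-fold changes for 3 higher genes and 0 lower ones. Those 3 were Itgax, Cd3g and Klrh1.

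The levels on both sides of the change are given here by direction. Genes were sorted by the sign of the change, so a lower start and a higher end among genes that rose are partly built in. Among the 122 genes that rose, 27 started below the array medians with GFP and 9 were still below them with the Myb vector, while 23 started above a log2 level of 8. Among the 122 that fell, 18 started below the medians and 34 ended there, while 38 started above 8. The median GFP level was 6.23 for genes that rose and 7.18 for genes that fell, and the median Myb level was 7.31 and 6.57. All 244 genes had Myb arrays wholly above or below the GFP arrays, which also held for 19% of all genes tested (9.16% above and 9.88% below), so it is a weak criterion alone. Leaving out any 1 replicate gave fewer calls, from 35 higher and 37 lower without GFP array 3, and 45 and 38 without GFP arrays 1 and 2, to 76 and 66 without Myb array 2. Of the 86 named genes with a call, 26 lost it with KY-1 arrays alone (limma adjusted p from 0.0509 to 0.168), which is given below beside each gene. Under another scaling, moderation, probe set summary or block, 17 lost it, and 16 of these also lost it in 3 or more of the 5 fits without a replicate. The other one was Itgad. Median centring of the arrays turned the balance to 139 higher and 83 lower, with a median over all genes of 0.04 in place of 0.00.

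**Figure D1:**
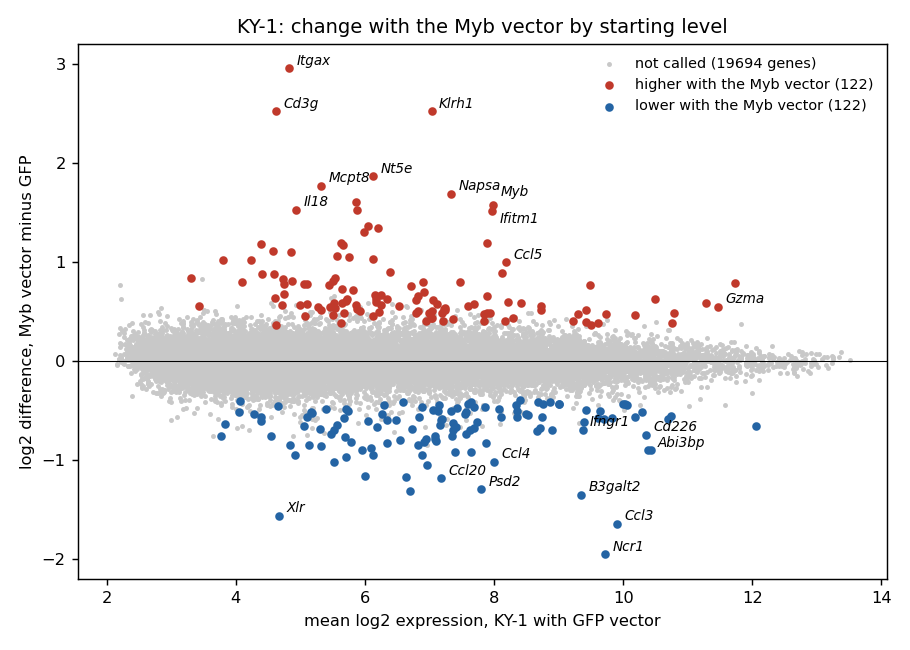
Each point is 1 gene in KY-1, with the mean log2 level in GFP replicates on the x axis and the log2 difference, Myb minus GFP, on the y axis. Red points are the 122 genes called higher and blue points the 122 called lower. Itgax, Cd3g and Klrh1 stand apart at the top, and Ncr1 and Ccl3 are the lowest points and started above a log2 level of 9.

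The 25 largest rises after Myb ranged from 1.0 to 2.96 on the log2 scale, and 8 of the 25 began below the array medians. The largest was Itgax, the integrin alpha chain CD11c. Its GFP arrays were at 4.87, 4.96 and 4.74 and its Myb arrays at 7.92, 7.74, 7.70 and 7.69. It therefore went from below the medians to well above them, by 2.96 ± 0.15 log2 (SE, limma adjusted p = 3.89e-06).

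Cd3g encodes the gamma chain of the CD3 complex, which carries T cell receptor signals. Its GFP arrays stood at 5.27, 4.90 and 4.16 and its Myb arrays at 7.16, 6.92, 7.38 and 7.30. The control arrays were spread over more than 1 log2 unit and all lay below the medians, so the rise of 2.52 ± 0.21 (SE, limma adjusted p = 0.000167) has an uncertain size. Klrh1, a lectin-like receptor gene of the NK gene complex, rose as far from a higher base. It had GFP arrays at 7.08, 7.04 and 7.01 and Myb arrays at 9.44, 9.45, 9.74 and 9.82, a difference of 2.52 ± 0.12 (SE, limma adjusted p = 3.89e-06).

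Nt5e encodes CD73, the surface enzyme that makes adenosine from AMP. It was at 6.25, 5.98 and 6.14 with GFP and at 7.98, 8.01, 7.95 and 8.0 with the Myb vector. Mcpt8, a serine protease of basophils, was at 5.39, 5.54 and 5.17 with GFP and at 7.07, 6.79, 7.37 and 7.39 with Myb. Neither gene had overlapping arrays, which the rule for choosing them required. The differences were 1.87 ± 0.10 and 1.76 ± 0.17 (SE, limma adjusted p = 3.89e-06 and 0.000508). The aspartic protease gene Napsa stood at 7.26, 7.12 and 7.48 against 9.04, 9.04, 8.95 and 9.01. Kcnn4, a calcium-activated potassium channel of lymphocytes, stood at 5.98, 5.93 and 5.77 against 7.52, 7.55, 7.29 and 7.38. Both genes thus rose about 3-fold, by 3.22-fold and 3.05-fold (limma adjusted p = 5e-06 and 1.49e-05).

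Il18 encodes a cytokine that drives NK cells to make interferon gamma. Its GFP arrays read 5.05, 4.92 and 4.88, below the medians, and its Myb arrays read 6.47, 6.34, 6.63 and 6.52 (2.88-fold, limma adjusted p = 3.25e-05). Heg1, a membrane protein of cell junctions, was tight in both groups, at 5.81, 5.90 and 5.89 with GFP and 7.41, 7.38, 7.39 and 7.42 with Myb (2.87-fold, limma adjusted p = 3.89e-06). A second Heg1 probe set differed by only 0.27, and the mean of both gave 0.89 ± 0.09 (SE, limma adjusted p = 0.000721). Ifitm1, an interferon-inducible membrane protein, went from 8.02, 8.08 and 7.89 to 9.51, 9.40, 9.60 and 9.49 (2.86-fold, limma adjusted p = 5e-06). These 3 genes stand next to each other in order of size by the probe sets used, and they started at different levels.

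Several of the remaining large rises were in genes known mainly from other tissues. Tnp2, a DNA-packing protein of sperm, rose 2.58-fold, Psg17, a pregnancy-specific glycoprotein, 2.27-fold, and Csn3, the milk protein kappa-casein, 2.08-fold (limma adjusted p = 5.76e-05, 0.00255 and 0.00221). Psg17 started at 7.81, 7.79 and 7.98, well above the medians, and reached 9.25, 9.05, 8.92 and 8.94. Others act in metabolism or growth. Pdk3, a kinase that holds back pyruvate dehydrogenase, rose 2.54-fold, Igf1, insulin-like growth factor, 2.16-fold and Mgst2, a glutathione transferase, 2.04-fold (limma adjusted p = 0.000836, 2.36e-05 and 0.00235).

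Igf1 and the transcription factor gene Mef2c began below the medians, at 4.58 ± 0.02 and 4.39 ± 0.11 (SD, n = 2), and ended at 5.69 ± 0.03 and 5.57 ± 0.16 (SD, n = 3). Of the 25 rises, 20 stayed called under all alternatives in which they were tested. The exceptions were Gzmg, Cpa3, Plac8, Khdc1a and Ccl5, and all of these but Plac8 kept the call with KY-1 arrays alone. Gzmg was lost without GFP array 3 (limma adjusted p = 0.0591), and Plac8 without GFP arrays 1 and 2, Myb array 1 or Myb arrays 3 and 4 (0.0789 to 0.206) and with KY-1 arrays alone (0.0892). Cpa3, Khdc1a and Ccl5 were each lost in 4 of the 5 fits that left out a replicate, all but that without Myb array 2 (0.115 to 0.226, 0.119 to 0.287 and 0.077 to 0.153).

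The 25 largest falls ranged from 0.85 to 1.96 in log2 size, and 10 of them ended below the array medians. Ncr1, which encodes the activating receptor NKp46 of NK cells, fell most. The GFP arrays were at 9.78, 9.77 and 9.67 and the Myb arrays at 7.96, 7.70, 7.64 and 7.61. The gap between the groups was many times the spread inside them, and the difference was -1.96 ± 0.17 (SE, 3.88-fold, limma adjusted p = 0.000227). NKp46 transcript was still above the array medians after the fall.

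Ccl3, the chemokine MIP-1 alpha, fell from 9.90, 9.96 and 9.89 to 8.17, 8.34, 8.29 and 8.28 (3.13-fold, limma adjusted p = 5.76e-05). B3galt2, a galactosyltransferase of glycan synthesis, fell from 9.32, 9.45 and 9.32 to 7.82, 8.10, 8.05 and 8.07 (2.56-fold, limma adjusted p = 0.00121). Ncr1, Ccl3 and B3galt2 thus dropped from the upper part of the range and remained well above the medians. Timp2, an inhibitor of metalloproteinases, fell from 6.62, 6.75 and 6.71 to 5.43, 5.61, 5.05 and 5.19, and Mmp9, the gelatinase, from 6.85, 6.94 and 7.01 to 5.88, 6.01, 5.75 and 5.91. A protease and an inhibitor of proteases were therefore both lower, by 2.48-fold and 2.07-fold (limma adjusted p = 0.000675 and 0.00592). The call of Mmp9 was lost without GFP array 3 (limma adjusted p = 0.0804).

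Psd2, an exchange factor for ARF GTPases, fell from 7.84, 7.90 and 7.74 to 6.52, 6.46, 6.53 and 6.54. Grk5, a kinase that desensitises G protein-coupled receptors, fell from 6.74, 6.73 and 6.55 to 5.48, 5.29, 5.58 and 5.69. These falls were 2.46-fold and 2.25-fold (limma adjusted p = 3.25e-05 and 0.000863). The lowest-lying gene among the large falls was Xlr, at 4.51, 4.62 and 4.77 with GFP and 3.04, 3.02, 3.60 and 2.93 with Myb. It lay below the medians in both groups, so its 2.96-fold fall (limma adjusted p = 0.000141) is of uncertain size. Eps8l3 and Abi3bp were the brightest of the 25, and each fell 1.87-fold, from 10.38 ± 0.05 to 9.48 ± 0.06 and from 10.43 ± 0.08 to 9.53 ± 0.12 (SD, n = 2 and 3, limma adjusted p = 0.00779 and 0.000501).

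Of the 25 falls, 14 stayed called under all alternatives in which they were tested. The other 11 were Mmp9, Klrb1a, Pcdh9, Kir3dl1, Rasgef1b, Rasl11a, Il21r, Eps8l3, Cyp4a12a, Fam184b and Tmsb15a. Without GFP arrays 1 and 2 the call was lost for all of these except Mmp9 (limma adjusted p from 0.0507 for Fam184b to 0.27 for Kir3dl1). Without GFP array 3 it was lost for Mmp9, at 0.0804, and for all the others except Fam184b (0.0526 for Rasl11a to 0.218 for Il21r). Leaving out Myb array 1 lost Klrb1a, Pcdh9, Kir3dl1, Rasl11a, Il21r, Cyp4a12a and Tmsb15a (0.0521 to 0.104). Leaving out Myb array 2 lost Rasl11a, Il21r and Cyp4a12a (0.0521 to 0.0759), and leaving out Myb arrays 3 and 4 lost Pcdh9 and Tmsb15a (0.0674 and 0.0912). With KY-1 arrays alone Pcdh9, Kir3dl1 and Cyp4a12a were lost (0.0546, 0.139 and 0.0768). The rest of the 11 kept the call in that fit (limma adjusted p from 0.00319 for Mmp9 to 0.0296 for Fam184b).

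**Figure D2:**
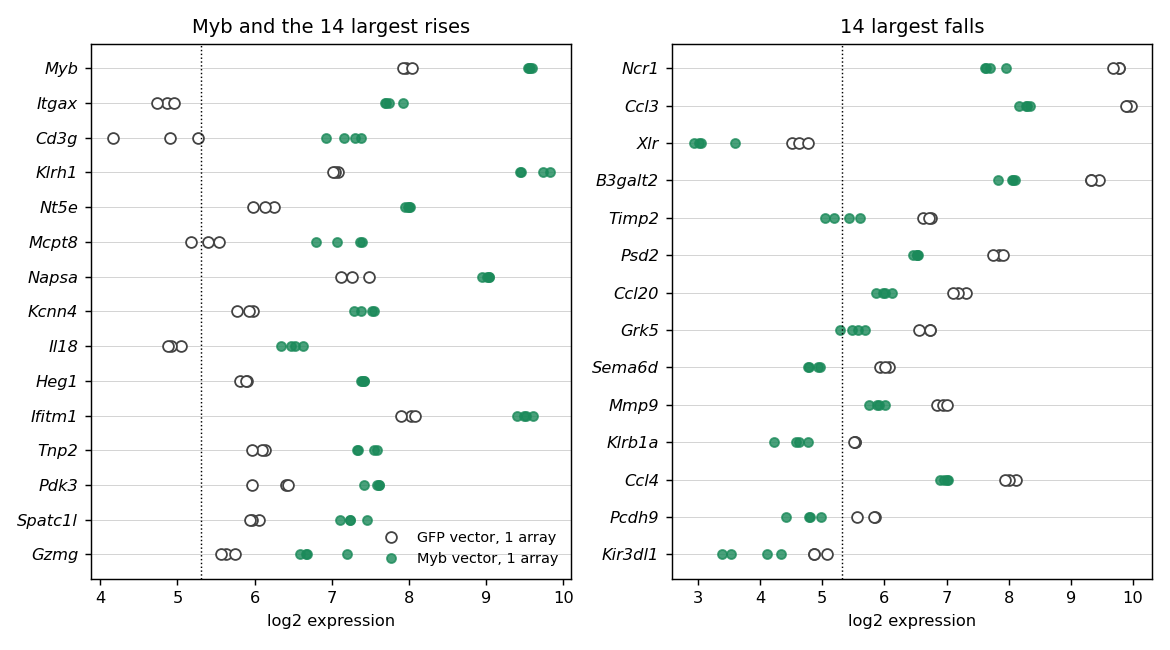
Each point is 1 KY-1 array, with log2 expression on the x axis and 1 gene per line, for Myb and the 14 largest rises on the left and the 14 largest falls on the right. Open circles are GFP arrays, filled circles Myb arrays, and the dotted line is the lowest array median of 5.31. The groups do not overlap in any of these genes, which the rule for choosing them required, and Itgax, Cd3g and Il18 cross the line on the way up.

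Promoter sequences of 5 of these genes show where the Myb motif occurs among the leading changes. They run from 250 bases before the gene start to 50 after it, in RefSeq's mouse assembly GRCm38.p6, and capitals mark a match to the Myb motif on either strand. The motif searched was either C or T, then AAC, then either G or T, then G. These windows were searched for letters only, and no binding was measured in this series. Mcpt8 is shown for its 2 matches, Nt5e and Il18 as large rises with 1 match each, Ncr1 as the largest fall with 1, and Itgax as the largest rise without one.

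Mcpt8 (chr14:56085148-56085447, minus strand): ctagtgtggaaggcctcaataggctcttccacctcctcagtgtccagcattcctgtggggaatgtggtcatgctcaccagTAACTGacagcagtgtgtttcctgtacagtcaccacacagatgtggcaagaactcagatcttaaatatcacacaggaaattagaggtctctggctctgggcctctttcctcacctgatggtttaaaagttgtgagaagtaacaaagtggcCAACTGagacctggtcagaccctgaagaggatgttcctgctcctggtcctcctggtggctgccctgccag
Nt5e (chr9:88327359-88327658, plus strand): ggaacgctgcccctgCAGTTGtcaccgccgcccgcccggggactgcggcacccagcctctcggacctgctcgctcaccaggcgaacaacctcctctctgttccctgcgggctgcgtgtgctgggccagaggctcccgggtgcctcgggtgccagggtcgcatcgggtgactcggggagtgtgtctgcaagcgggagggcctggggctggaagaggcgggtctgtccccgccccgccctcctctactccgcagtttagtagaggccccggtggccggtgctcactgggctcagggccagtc
Il18 (chr9:50554450-50554749, plus strand): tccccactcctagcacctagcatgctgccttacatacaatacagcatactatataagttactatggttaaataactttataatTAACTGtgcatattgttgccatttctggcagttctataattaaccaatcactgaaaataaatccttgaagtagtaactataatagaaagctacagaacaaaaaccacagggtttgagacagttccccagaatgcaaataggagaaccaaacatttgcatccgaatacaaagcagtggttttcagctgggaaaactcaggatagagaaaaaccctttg
Ncr1 (chr7:4337465-4337764, plus strand): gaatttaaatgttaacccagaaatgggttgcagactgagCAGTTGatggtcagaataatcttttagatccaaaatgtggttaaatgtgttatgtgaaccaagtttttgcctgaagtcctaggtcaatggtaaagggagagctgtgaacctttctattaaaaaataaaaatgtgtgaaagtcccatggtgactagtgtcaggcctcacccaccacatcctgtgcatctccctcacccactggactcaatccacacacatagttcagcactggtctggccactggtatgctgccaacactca
Itgax (chr7:128129300-128129599, plus strand): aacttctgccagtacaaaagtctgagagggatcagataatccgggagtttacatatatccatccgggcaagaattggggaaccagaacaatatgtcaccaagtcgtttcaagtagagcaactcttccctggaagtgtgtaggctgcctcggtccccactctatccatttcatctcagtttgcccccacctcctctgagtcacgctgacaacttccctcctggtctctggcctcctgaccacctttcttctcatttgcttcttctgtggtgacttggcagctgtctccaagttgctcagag

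In Mcpt8 the matches begin at positions -170 and -20 relative to the gene start. In Nt5e and Ncr1 the letters appear as CAGTTG, the reverse complement of CAACTG. Of the 25 largest rises, 21 had a window in the table and 8 of them (38.1%) held a match. These 8 were Nt5e, Mcpt8, Kcnn4, Il18, Pdk3, Pls1, Cpa3 and Plac8. Of the 25 largest falls, 18 had a window and 6 (33.3%) held one, namely Ncr1, Xlr, Klrb1a, Sh3kbp1, Fam184b and Tmsb15a. Over all called genes the share was 37.4% of 99 that rose and 31.9% of 91 that fell, beside 29.4% of 15614 tested genes with a window and 28.3% of all 32851 windows of this length. The motif is thus common, and the shares among changed genes lie within 10 percentage points of it.

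NK activating receptors and their adaptors held the most called members of any list, all of them lower. Of 26 tested, 0 rose and 8 fell, beside 0.612% of all genes in each direction, and the median difference was -0.13 against 0.00 over all genes. Beside Ncr1 these were Cd226, or DNAM-1, Klrb1c, the receptor NK1.1, its relatives Klrb1f and Klrb1a, Fcgr3, the Fc receptor CD16, Slamf7, a receptor of the SLAM family, and Itgal, the LFA-1 integrin chain. Members of the Klrb1 family share sequence, so which member a probe set reads is uncertain.

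Cd226 was at 10.35, 10.37 and 10.35 with GFP and at 9.65, 9.49, 9.67 and 9.69 with Myb, a 1.68-fold fall (limma adjusted p = 0.00479). Klrb1c was at 9.67, 9.62 and 9.58 against 9.03, 9.06, 9.01 and 8.99 (1.5-fold, limma adjusted p = 0.00301), and Fcgr3 at 9.72, 9.74 and 9.69 against 9.13, 9.13, 9.11 and 9.10 (1.5-fold, limma adjusted p = 0.00695). Slamf7 was at 9.34, 9.37 and 9.44 against 8.87, 8.75, 8.76 and 8.71 (1.53-fold, limma adjusted p = 0.00459). All 4 remained well above the array medians. Every Myb array was below every GFP array, as in all 122 genes called lower and in 9.88% of all genes tested. Among adaptors, Tyrobp, or DAP12, differed by -0.23 ± 0.14 and Sh2d1a, or SAP, by -0.21 ± 0.10 from a level below the medians (SE, limma adjusted p = 0.606 and 0.478).

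The number of lower members of this list ran from 3 to 7 when a replicate was left out. Cd226, Fcgr3, Klrb1a and Itgal were lost without GFP arrays 1 and 2 (limma adjusted p = 0.055, 0.085, 0.132 and 0.142) and, with Slamf7, without GFP array 3 (0.0574, 0.0631, 0.133, 0.272 and 0.0756). Klrb1a was also lost without Myb array 1 (0.0521). Itgal was lost without any 1 replicate, at 0.0808 or more, and with KY-1 arrays alone (0.131). The mean level of the 12 NK markers on an array, a list that shares members such as Ncr1 and Klrb1c with this one, was 9.71 to 9.79 with GFP and 9.42 to 9.51 with Myb. Those 2 genes, at -1.96 and -0.58, weigh on that mean and were the only markers of the 12 called. The other 10 were not called, and the median of the list was -0.14.

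Inhibitory receptors and checkpoints had 1 called member, Klrh1. Of 24 tested, 1 rose and 0 fell, beside 0.612% of all genes in each direction, 11 had an unadjusted p under 0.05, and the median was 0.03. Among the 26 activating receptors and adaptors 8 had an unadjusted p under 0.05, beside 2192 of all 19938 genes tested. The difference between both lists was not tested. Lilrb4a stood at -0.63 ± 0.15 (SE, limma adjusted p = 0.0923), Lag3 at 0.37 ± 0.11 (0.166) and Klre1 at -0.32 ± 0.09 (0.171). Of 6 Ly49 genes 0 were called by limma, and 1 had an unadjusted p under 0.05. Only Klra5 of that family was above a log2 level of 8 with GFP, and its difference was -0.07 ± 0.12 (SE, limma adjusted p = 0.911), while 5 lay below the medians in both groups. In the list of signals downstream of these receptors, 1 of 33 rose and 0 fell. It was Lat2, an adaptor of lymphocyte receptor signalling, at 6.97, 6.93 and 6.84 with GFP and 7.68, 7.65, 7.70 and 7.78 with Myb (1.73-fold, limma adjusted p = 0.00121). The kinase gene Txk was just short of the threshold, at -0.36 ± 0.08 (SE, limma adjusted p = 0.0528).

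Among genes of the cytotoxic granule a pair of granzymes rose. Of 28 tested, 2 rose and 0 fell, beside 0.612% of all genes in each direction, and the median was -0.05. Gzma, the tryptase-like granzyme, stood at 11.48, 11.52 and 11.43 with GFP and 12.09, 11.93, 12.01 and 12.01 with Myb, a 1.46-fold rise (limma adjusted p = 0.00742). Gzmg stood at 5.63, 5.75 and 5.56 against 7.19, 6.59, 6.68 and 6.66, a 2.29-fold rise (limma adjusted p = 0.00376). Its relative Gzme differed the other way, at -0.85 ± 0.23 (SE, limma adjusted p = 0.127), and these granzymes share sequence, which leaves the member uncertain. Without GFP array 3 both calls were lost (0.101 for Gzma and 0.0591 for Gzmg), and Gzma was lost without GFP arrays 1 and 2 (0.053) and with KY-1 arrays alone (0.0554). Prf1, the pore-forming protein perforin, was at 0.18 ± 0.09 (SE, limma adjusted p = 0.503) and Tnf at -0.34 ± 0.09 (0.123).

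Chemokine genes moved in both directions. Of 34 tested, 4 fell, Ccl3, Ccl4, Ccl20 and Xcl1, and 1 rose, Ccl5, beside 0.612% of all genes in each direction. Below the medians in both groups lay 22. The median was -0.06. Ccl4, or MIP-1 beta, was at 8.11, 8.0 and 7.94 with GFP and 6.96, 7.01, 7.03 and 6.90 with Myb (2.03-fold, limma adjusted p = 0.000501). Ccl20, the ligand of CCR6, was at 7.31, 7.19 and 7.11 against 5.86, 6.12, 5.97 and 6.01 (2.28-fold, limma adjusted p = 0.000156). Ccl5, or RANTES, was at 8.21, 8.19 and 8.18 against 9.23, 9.10, 9.24 and 9.24 (1.99-fold, limma adjusted p = 0.0211). With KY-1 arrays alone in the fit it was called at a lower limma adjusted p of 0.00316. The Ccl5 call was lost in the 4 fits without GFP arrays 1 and 2, GFP array 3, Myb array 1 or Myb arrays 3 and 4 (limma adjusted p = 0.143, 0.153, 0.077 and 0.0782), although the difference stayed between 0.97 and 1.04.

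Xcl1, or lymphotactin, fell 1.51-fold from 10.69 ± 0.14 (SD, n = 2) to 10.10 ± 0.11 (SD, n = 3, limma adjusted p = 0.0115), and the call was lost without GFP arrays 1 and 2 (0.137) and with KY-1 arrays alone (0.0736). Among receptors for chemokines and sphingosine phosphate, 2 of 27 rose and 1 fell, beside 0.612% of all genes in each direction. The median of -0.03 turned to 0.02 with median centring. Cxcr6, which holds lymphocytes in liver and other tissues, was at 10.82, 10.78 and 10.68 with GFP and 10.20, 10.13, 10.22 and 10.24 with Myb (1.47-fold lower, limma adjusted p = 0.00779), and was lost without GFP arrays 1 and 2 (0.104). S1pr3, a sphingosine phosphate receptor, rose 1.84-fold from a level below the medians (4.40 ± 0.39, SD, n = 2, limma adjusted p = 0.0269), and was lost without GFP array 3, Myb array 1 or Myb arrays 3 and 4 (0.0912 to 0.229) and with KY-1 arrays alone (0.0911). Cxcr4, which retains cells in bone marrow, was at 5.69, 5.70 and 6.02 with GFP and 6.49, 6.28, 6.49 and 6.48 with Myb, a 1.48-fold rise (limma adjusted p = 0.0435) that was lost without any 1 of the 5 replicates (0.0521 to 0.347) and with KY-1 arrays alone (0.126).

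Among cytokines and growth factors 2 of 32 rose, Il18 and Igf1, and 1 fell, Ifng, beside 0.612% of all genes in each direction. Ifng, the interferon gamma gene, was at 8.55, 8.59 and 8.42 with GFP and 7.93, 7.90, 8.13 and 7.94 with Myb (1.45-fold, limma adjusted p = 0.019). That call was lost without GFP arrays 1 and 2, GFP array 3, Myb array 1 or Myb array 2 (limma adjusted p = 0.193, 0.0756, 0.0682 and 0.0631) and with KY-1 arrays alone (0.0679). On the receptor side 0 of 38 rose and 2 fell, again beside 0.612% in each direction. Ifngr1, a chain of the interferon gamma receptor, was at 9.35, 9.40 and 9.37 against 8.74, 8.57, 8.71 and 8.71 (1.62-fold, limma adjusted p = 0.00274) and stayed called in all alternatives. Il21r, the receptor of IL-21, was at 7.57, 7.49 and 7.76 against 6.61, 6.68, 6.90 and 6.87 (1.89-fold, limma adjusted p = 0.0239), and was lost in 4 of the 5 fits without a replicate, all but that without Myb arrays 3 and 4 (0.0735 to 0.218). Both chains of the IL-18 receptor were near each other below 0, Il18r1 at -0.34 ± 0.09 and Il18rap at -0.35 ± 0.10 (SE, limma adjusted p = 0.141 and 0.149), in cells where Il18 itself rose. Of 23 genes of the JAK-STAT and SOCS pathway through which IL-15 signals, 0 were called by limma. An unadjusted p under 0.05 was found for 4 of them, beside 2192 of all 19938 genes tested.

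Beside Myb, the transcription factor genes Mef2c, Zbtb32 and Erg rose. Calls covered 0.612% of all genes in each direction. Of 35 factors of the NK lineage 1 rose, Zbtb32, a zinc finger factor of activated lymphocytes, from 5.74, 5.66 and 5.60 to 6.47, 6.34, 6.40 and 6.23 (1.65-fold, limma adjusted p = 0.00275), a call lost without GFP array 3 (0.0507). Ets1 stood at -0.55 ± 0.13, Runx1 at -0.67 ± 0.18 and Tbx21, or T-bet, at -0.24 ± 0.11 (SE, limma adjusted p = 0.0762, 0.148 and 0.463). Of 28 progenitor and Myb partner genes 3 rose, Myb, Mef2c (2.27-fold, limma adjusted p = 0.000675) and Erg. Erg, an ETS factor of blood stem cells, went from 4.99 ± 0.09 (SD, n = 2) to 5.56 ± 0.13 (SD, n = 3, limma adjusted p = 0.0342) and was lost without any 1 replicate (0.0693 to 0.27) and with KY-1 arrays alone (0.0791). The relative Mybl1 stood at -0.38 ± 0.10 and the partner Cebpb at 0.44 ± 0.11 (SE, limma adjusted p = 0.156 and 0.102).

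Genes reported elsewhere as Myb targets mostly had small positive differences. Of 32 tested, 25 had a positive difference and the median was 0.08, beside 49.6% positive and a median of 0.00 over all genes. In KY-2, where the vector raised Myb further, the list median was -0.002, beside 0.011 over all genes. Calls were made for 3 of the 32, beside 1.22% of all genes in either direction. Ada, adenosine deaminase, was at 5.50, 5.58 and 5.48 with GFP and 5.96, 5.90, 6.10 and 6.06 with Myb (1.38-fold higher, limma adjusted p = 0.0434). Cxcr4 was the other gene that rose. Birc3, an inhibitor of apoptosis, fell from 7.78, 7.72 and 7.63 to 7.31, 7.12, 7.22 and 7.28 (1.38-fold, limma adjusted p = 0.0357). None of these 3 calls was kept on the loss of any 1 replicate (limma adjusted p = 0.0691 to 0.278 for Ada, 0.0521 to 0.347 for Cxcr4 and 0.064 to 0.284 for Birc3), nor with KY-1 arrays alone (0.0985, 0.126 and 0.113). Myc, a reported target, stood at 0.13 ± 0.08 from a level of 11.60 (SE, limma adjusted p = 0.594), and Bcl2, another, at 0.14 ± 0.08 from 10.10 (0.547).

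Immediate early and feedback genes of receptor signalling had 1 member that rose and 1 that fell among 34. Calls covered 0.612% of all genes in each direction. Spry2, an inhibitor of receptor kinase signals, rose 1.53-fold (7.01, 7.03 and 7.08 against 7.81, 7.60, 7.58 and 7.58, limma adjusted p = 0.0136). Tnfaip3, or A20, a brake on NF-kappa B, fell 1.57-fold (6.98, 7.05 and 7.31 against 6.63, 6.50, 6.47 and 6.36, limma adjusted p = 0.0115). Spry2 was lost without GFP arrays 1 and 2 (0.132) or GFP array 3 (0.0975), and Tnfaip3 without GFP array 3 (0.133). Both were lost with KY-1 arrays alone (0.0509 and 0.0706). In the Bcl2 family 0 of 15 rose and Bcl2a1c fell 1.69-fold (limma adjusted p = 0.0388), a call lost without any 1 replicate (0.0988 to 0.312), in a gene family whose members share sequence.

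Integrins were the adhesion group with most rises. Of 31 tested, 3 rose, Itgax, Itgad and Itgae, and 1 fell, Itgal, beside 0.612% of all genes in each direction. Itgax, Itgad (CD11d) and Itgal (CD11a) encode alpha chains that pair with the same beta chain, beta-2, and Itgae (CD103) pairs with beta-7. Itgad was at 4.60, 4.57 and 4.87 with GFP and 5.41, 5.79, 5.45 and 5.49 with Myb (1.78-fold, limma adjusted p = 0.0152). Itgae was at 4.97, 5.33 and 5.04 against 5.97, 5.90, 5.80 and 5.69 (1.72-fold, limma adjusted p = 0.0222). Itgal was at 8.64, 8.62 and 8.72 against 8.30, 8.19, 8.27 and 8.30 (1.33-fold lower, limma adjusted p = 0.035). All 3 of the integrin genes that rose therefore started below the array medians on average, whereas the one that fell started well above them. A second Itgad probe set stood at 4.71 with GFP and 4.76 with Myb, and the mean of both differed by 0.44 ± 0.10 (SE, limma adjusted p = 0.0714). Itgad was also lost without GFP arrays 1 and 2 (0.172) and with KY-1 arrays alone (0.0509), Itgae in the 4 fits other than that without Myb arrays 3 and 4 (0.0686 to 0.184), and Itgal in all 5 (0.0808 to 0.272) and with KY-1 arrays alone (0.131). The beta-7 gene Itgb7 stood at 0.39 ± 0.10 (SE, limma adjusted p = 0.113).

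Among other adhesion and guidance genes 1 of 27 rose, Heg1, and 3 fell, Timp2, Sema6d and Cd63. The share of all genes was 0.612% in each direction. Sema6d, a semaphorin, went from 6.07, 5.92 and 6.01 to 4.79, 4.77, 4.93 and 4.96, from above to below the medians (2.24-fold, limma adjusted p = 0.00026). Cd63, a tetraspanin of granule membranes, lay below the medians in both groups (3.83 ± 0.12 and 3.19 ± 0.24, SD, n = 2 and 3, limma adjusted p = 0.0394) and was lost without any 1 replicate (0.0607 to 0.3) and with KY-1 arrays alone (0.126).

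Single genes of the T cell and mast cell programmes rose. Of 19 CD3 and T cell receptor genes 2 rose, Cd3g and Cd7, beside 0.612% of all genes. Cd7, a surface molecule of T and NK cells, was at 10.50, 10.53 and 10.47 with GFP and 11.14, 11.07, 11.13 and 11.12 with Myb (1.54-fold, limma adjusted p = 0.0115), lost without GFP arrays 1 and 2 (0.0869) or GFP array 3 (0.116). Cd3e, the partner chain of Cd3g, stood at -0.42 ± 0.17 and Lat at -0.17 ± 0.09 (SE, limma adjusted p = 0.387 and 0.526). The mean level of the 12 T cell markers, Cd3g among them, was 5.10 to 5.17 on GFP arrays and 5.22 to 5.37 on Myb arrays, and 0 of the 12 stood above a log2 level of 8.

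Of 10 mast cell and basophil markers 2 rose, Mcpt8 and Cpa3, beside 0.612% of all genes. Below the medians in both groups lay 7. Cpa3, the mast cell carboxypeptidase, was at 4.89, 4.93 and 4.81 with GFP and 6.15, 5.55, 6.19 and 6.16 with Myb (2.14-fold, limma adjusted p = 0.0331), and was lost in all fits without a replicate but that without Myb array 2 (0.115 to 0.226). The other members gave differences near 0. Kit stood at -0.09 ± 0.11 from 10.39, Gata2 at -0.09 ± 0.10 from 5.05, Tpsb2 at -0.06 ± 0.09 from 4.39 and Prss34 at 0.19 ± 0.13 from 4.75 (SE, limma adjusted p = 0.837, 0.815, 0.901 and 0.666). The mean level of the 10 markers was 4.81 to 4.91 on GFP arrays and 5.08 to 5.20 on Myb arrays. Defining genes of mast cells and basophils other than Mcpt8, Cpa3 and Kit, such as the tryptase Tpsb2 and the basophil protease Prss34, thus lay below the medians with both vectors.

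Of the 6 B cell, 5 erythroid, 5 stromal and 3 other innate lymphocyte markers, 0 were called by limma. An unadjusted p under 0.05 was found for 1, 0, 0 and 0, beside 2192 of all 19938 genes tested. Calls covered 0.612% of all genes in each direction. Of 10 myeloid markers, all below the medians in both groups, 1 fell, S100a9, at 4.66 ± 0.07 with GFP and 4.20 ± 0.12 with Myb (SD, n = 2 and 3, limma adjusted p = 0.0389). That call was lost in the 4 fits other than that without Myb arrays 3 and 4 (0.0939 to 0.281) and with KY-1 arrays alone (0.131).

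Purine and adenosine metabolism had 3 genes that rose and 0 that fell among 13, beside 0.612% of all genes in each direction. The median was 0.11. They were Nt5e, which makes adenosine outside the cell, Slc29a1, a nucleoside transporter that carries it inside, and Ada, which breaks it down. Slc29a1 was at 6.71, 6.79 and 6.84 with GFP and 7.23, 7.31, 7.33 and 7.30 with Myb (1.40-fold, limma adjusted p = 0.0141). It was lost without GFP arrays 1 and 2, GFP array 3 or Myb arrays 3 and 4 (0.154, 0.079 and 0.0529), and Ada without any 1 replicate (0.0691 to 0.278). Both were lost with KY-1 arrays alone (0.0768 and 0.0985), so Nt5e alone of the 3 was called in every fit. The salvage enzyme Adk stood at 0.15 ± 0.08 (SE, limma adjusted p = 0.565).

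Other metabolic groups gave 1 or 2 calls each, where calls covered 0.612% of all genes in each direction. In glutathione and redox metabolism 2 of 45 rose and 0 fell. Mgst2 was at 6.22, 6.50 and 5.90 with GFP and 7.12, 7.18, 7.18 and 7.15 with Myb, and Hmox1, heme oxygenase, at 7.95, 7.99 and 7.80 against 8.60, 8.59, 8.49 and 8.41 (1.58-fold, limma adjusted p = 0.00779). Hmox1 was lost without GFP array 3 (0.114). In fatty acid oxidation and transport 1 of 20 rose, Acadl, a mitochondrial dehydrogenase, by 1.31-fold, and 1 fell, Crot, a peroxisomal transferase, by 1.36-fold (limma adjusted p = 0.0315 and 0.0244). In sterol and fatty acid synthesis 0 of 28 rose and 1 fell, the desaturase Fads2, by 1.40-fold (limma adjusted p = 0.0387), with a list median of -0.10. The calls of Acadl, Crot and Fads2 were lost without any 1 replicate (0.0668 to 0.234, 0.0556 to 0.225 and 0.0542 to 0.296) and with KY-1 arrays alone (0.14, 0.101 and 0.134).

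The machinery of growth and division gave no called gene in KY-1. By limma 0 of 38 mitosis genes, 0 of 36 DNA replication genes, 0 of 21 G1 regulators, 0 of 11 MYC network genes and 0 of 18 p53 targets were called. An unadjusted p under 0.05 was found for 8, 1, 4, 1 and 3 of them, beside 2192 of all 19938 genes tested. Of the mitosis genes 36 had a negative difference and the median was -0.10, beside 10056 negative of 19938 genes and a median of 0.00. The median stayed negative in every scaling, at -0.06 with median centring. Mki67, the proliferation antigen, stood at -0.31 ± 0.08 from 10.72, Cenpf, a kinetochore protein, at -0.30 ± 0.08 from 9.20 and Kif4, a mitotic motor, at -0.24 ± 0.07 from 8.64 (SE, limma adjusted p = 0.102, 0.11 and 0.201). DNA replication genes were split evenly, 18 positive and 18 negative, with Pcna at -0.15 ± 0.08 and Mcm2 at 0.16 ± 0.09 (SE, limma adjusted p = 0.534 and 0.558).

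The lists of ribosomal protein, ribosome biogenesis, respiratory complex and proteasome genes likewise held no called member. By limma 0 of 77 mitochondrial ribosomal protein genes were called, 10 had an unadjusted p under 0.05, and 65 had a positive difference. Their median was 0.09. Beside these stand 2192 of all 19938 genes tested with an unadjusted p under 0.05, and 49.6% with a positive difference. Mrpl10 stood at 0.35 ± 0.09 and Mrps28 at 0.25 ± 0.07 (SE, limma adjusted p = 0.127 and 0.176). Of 57 cytosolic ribosomal protein genes 0 were called, 1 had an unadjusted p under 0.05 and 26 had a positive difference. Of 30 ribosome biogenesis genes 22 were positive (median 0.07, 5 with an unadjusted p under 0.05), of 39 proteasome genes 33 (0.06, 4) and of 34 genes of respiratory complex I 26 (0.04, 1), with 0 called by limma in each. Of 47 genes of respiratory complexes II to V, 29 of glycolysis and the hypoxia response, 36 of tRNA charging and the amino acid response and 25 of ER chaperones, 0 were called by limma, and 5, 10, 2 and 3 had an unadjusted p under 0.05. The closest was Creld2, an ER stress gene, at 0.35 ± 0.08 (SE, limma adjusted p = 0.0551). All these shifts are at most about 0.1 log2 in the median, and median centring moves every one of them up by about 0.04.

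Of 34 interferon-stimulated genes 2 rose and 0 fell, beside 0.612% of all genes in each direction, and the median was 0.08. Cmpk2, a mitochondrial nucleotide kinase, rose 1.60-fold from 4.74 ± 0.17 (SD, n = 2), below the medians, to 5.42 ± 0.13 (SD, n = 3, limma adjusted p = 0.0153). Gbp3, a guanylate-binding protein, rose 1.42-fold (limma adjusted p = 0.0496). Cmpk2 was lost without GFP array 3, Myb array 1 or Myb arrays 3 and 4 (0.0638 to 0.174) and Gbp3 in all fits without a replicate but that without GFP arrays 1 and 2 (0.0773 to 0.357). Both were lost with KY-1 arrays alone (0.0563 and 0.159). Of 7 Ifitm genes 1 rose, Ifitm1, while Ifitm2 stood at 0.37 ± 0.10 from 11.83 and Ifitm3 at 0.18 ± 0.16 from 4.81 (SE, limma adjusted p = 0.127 and 0.769). Of 20 MHC and antigen presentation genes 1 rose, H2-Q10, by 1.43-fold (limma adjusted p = 0.0486), which was lost in all fits without a replicate but that without Myb array 2 (0.0733 to 0.354) and with KY-1 arrays alone (0.168). Of 8 milk casein genes only Csn3 was called, and 5 lay below the medians in both groups.

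**Figure D3:**
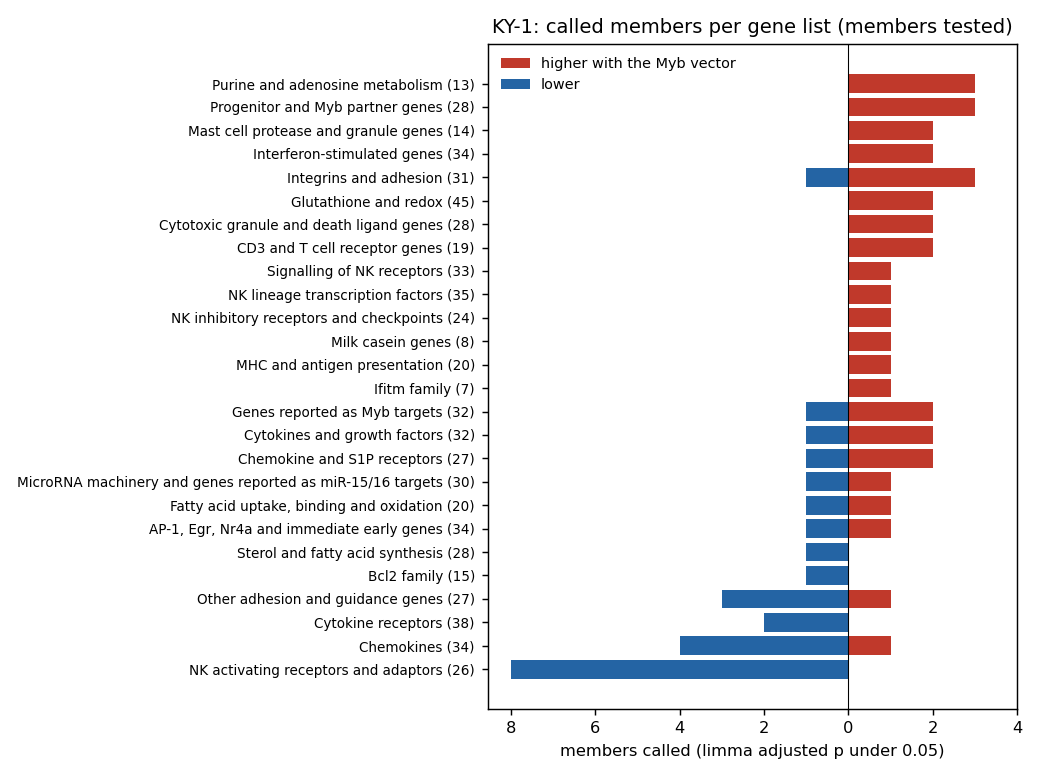
Bars give the number of members called higher (red, to the right) or lower (blue, to the left) with the Myb vector in KY-1, for the gene lists with at least 1 call, with the number of members tested in brackets. Cell type marker lists are not drawn. NK activating receptors have 8 lower members and 0 higher, and purine, progenitor and integrin lists have 3 higher members each.

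The microRNAs of the miR-15/16 family, known regulators of Myb, share 1 seed, bases 2 to 8, shown in capitals. Their sequences are those of RefSeq's GRCm38.p6 annotation. Their own levels were not measured in a form used here, so only genes reported as their targets and genes of the microRNA machinery were read.

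mmu-miR-15a-5p: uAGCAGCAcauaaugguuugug
mmu-miR-15b-5p: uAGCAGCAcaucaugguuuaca
mmu-miR-16-5p: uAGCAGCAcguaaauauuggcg

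Of 30 such genes 1 rose, Myb itself, which the vector supplies, and 1 fell, Pdcd4, a translation inhibitor and tumour suppressor. The share of all genes was 0.612% in each direction. Pdcd4 was at 9.85, 9.86 and 9.79 with GFP and 9.35, 9.15, 9.22 and 9.26 with Myb (1.49-fold, limma adjusted p = 0.00625), and was lost without GFP arrays 1 and 2 (0.0828) or GFP array 3 (0.0516) and with KY-1 arrays alone (0.0512). The list median was -0.01, and median centring turned it to 0.03. Of the machinery, Tarbp2 stood at 0.30 ± 0.08, Ago3 at -0.22 ± 0.11 and Dgcr8 at -0.17 ± 0.09 (SE, limma adjusted p = 0.11, 0.518 and 0.518).

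The KY-1 response differed from that of KY-2, a line whose Myb level was 5.05 with GFP and 9.74 with the vector, for part of these genes. The Myb vector changed 2.83% of all genes in KY-2. A test of the difference between both Myb effects called 0.843% of all genes, 0.381% with a higher effect in KY-1 and 0.461% with a lower one. Of the 122 genes that rose in KY-1, 39 had an effect that differed between lines by that test, larger in KY-1 for 28 and smaller for 11. Of the 122 that fell, 26 differed, with a larger fall in KY-1 for 25 and a smaller one for 1. The other 83 and 96 genes were not shown to differ, which does not show that they responded alike. Since KY-1 calls used the same KY-1 arrays as the test of the difference, genes called in KY-1 by a large effect are favoured in it.

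Of the genes that differed, 16 that rose and 16 that fell in KY-1 had KY-2 differences within 0.2 log2 of 0. In 4 of the 5 largest rises, Cd3g, Klrh1, Nt5e and Mcpt8, KY-2 stood at -0.11, 0.07, 0.04 and -0.17. The levels behind those values were unlike. Nt5e in KY-2 was at 7.86 with GFP and 7.90 with Myb, a level that KY-1 reached only with the vector (7.99), and Cd3g in KY-2 was at 12.30 and 12.19, far above either KY-1 group. Klrh1 in KY-2 was at 6.51 and 6.58, and Mcpt8 at 4.25 and 4.09, below the medians. Pdk3, higher in KY-1, likewise stood at 8.41 and 8.44 in KY-2, above both KY-1 groups.

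Among the falls, Ncr1 in KY-2 was at 5.43 with GFP and 5.34 with Myb, and Ccl20 was at 5.01 and 5.12. Both were thus close to or below the array medians in KY-2 before Myb was raised, which leaves little room to measure a decrease, and the test of the difference (Ncr1 -1.86 ± 0.24, Ccl20 -1.30 ± 0.14, SE, limma adjusted p = 0.00365 and 0.000897) includes that. Mmp9, Rasgef1b, Tdpoz2, Adgre5 and Fam184b also lay below the medians with GFP in KY-2, at 4.92, 4.07, 4.84, 4.58 and 5.26. Psd2 and Rasl11a lay close to them, at 5.51 and 5.35. A second Tdpoz2 probe set differed by -0.28 in KY-1, against -0.95 for the one used. Other genes with a differing fall lay above the medians with GFP in KY-2, with B3galt2 at 6.56, Tnfaip3 at 6.61 and Sh3kbp1 at 7.04. Klrb1f stood higher still, at 9.0 with GFP and 9.29 with Myb in KY-2. Its effects differed by -0.98 ± 0.12 (SE, limma adjusted p = 0.00309). Whether the starting level in KY-2 bears on these differences was not tested.

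Effects that pointed in opposite directions and were called in both lines were seen for 7 of the genes that rose in KY-1 and 2 of those that fell, where KY-2 calls covered 1.55% of all genes as lower and 1.28% as higher. Csn3 went from 5.57 to 6.63 in KY-1 and from 8.39 to 6.52 in KY-2, so the lines ended at similar levels. Ccl5 went from 8.19 to 9.19 in KY-1 and from 11.30 to 10.44 in KY-2, and Zbtb32 from 5.65 to 6.38 in KY-1 and from 7.03 to 6.41 in KY-2. In these 3 genes, and in Cd7 below but not Igf1, the lines lay closer together with the Myb vector than with GFP. KY-1 started lower in all of them, so a rise there and a fall in KY-2 favour this from the way they were picked. Igf1 went from 4.58 to 5.69 and from 5.06 to 4.69, and Cd7 from 10.49 to 11.11 and from 11.76 to 11.31. Limma adjusted p-values in KY-2 were 9.99e-06 for Csn3, 0.0228 for Ccl5, 0.00364 for Zbtb32, 0.0205 for Igf1 and 0.03 for Cd7.

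Myb itself rose by 1.58 log2 in KY-1 and 4.69 in KY-2, and a link between that and the size of other effects was not tested. Smaller effects in KY-1 were seen for Ifitm1, Mgst2, Plac8, Cxcr4 and Erg. Their log2 differences in KY-1 and KY-2 were 1.52 and 2.97 for Ifitm1, 1.03 and 2.33 for Mgst2, 1.02 and 2.31 for Plac8, 0.56 and 1.64 for Cxcr4 and 0.57 and 1.40 for Erg. Heg1 (1.52 and 1.36), Il18 (1.53 and 1.29) and Kcnn4 (1.61 and 1.15) were not shown to differ (limma adjusted p = 0.672, 0.648 and 0.238), and Sema6d (-1.17 and -1.20, adjusted p = 0.973) and Ccl3 (-1.64 and -1.39, adjusted p = 0.677) were not either.

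**Figure D4:**
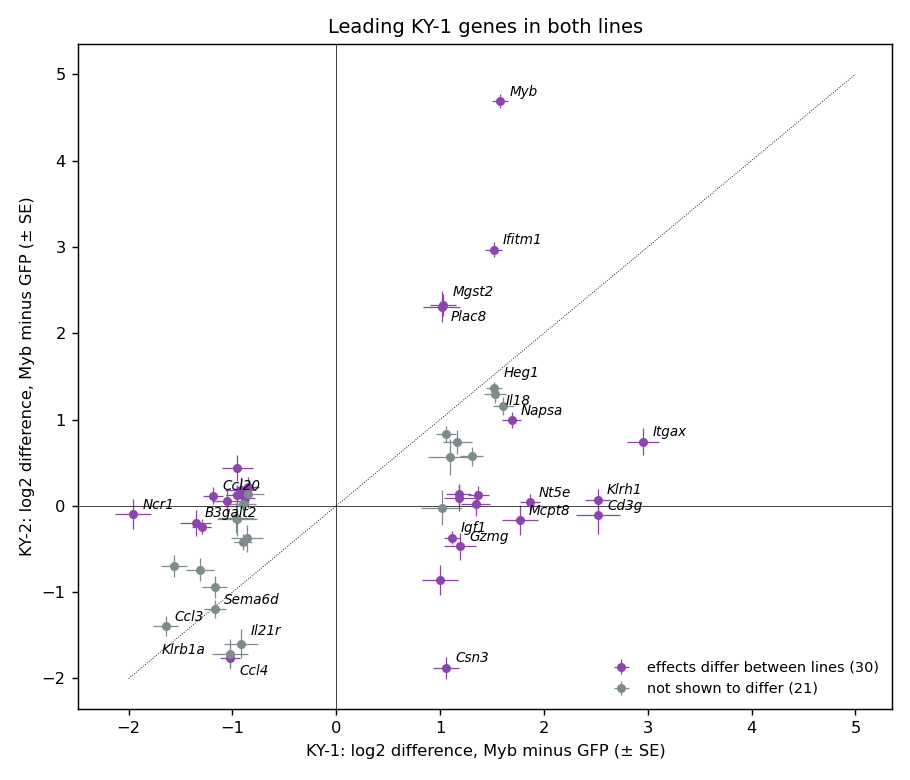
Each point is Myb, 1 of the 25 largest rises or 1 of the 25 largest falls of KY-1, with the log2 difference in KY-1 on the x axis and in KY-2 on the y axis, and bars give SE. Purple points are the 30 genes whose effects differed between lines by limma, grey points the 21 not shown to differ, and the dotted line marks equal effects. Klrh1, Cd3g and Nt5e lie far right near 0 in KY-2, and Csn3 lies below 0 in KY-2.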

How the data were processed

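Total RNA of 12 samples, 7 of them KY-1, was read on single-colour Affymetrix arrays. The deposited values are log2 expression per probe set, which the authors made with Partek and RMA, per the submitters' processing notes. No source used here gives versions, options or a genome build. Of 35556 probe sets, 21789 had 1 gene symbol in GEO's platform annotation, 1621 had several and 12146 were not listed. Symbols were checked through Entrez identifiers against RefSeq's gene table (0 changed, 91 not found and kept). The brightest probe set stood for each of the 999 genes with more than 1. This gave 19938 genes, and dim ones were kept. Near-identical family members can share a probe set.

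Limma 3.58.1 in R 4.3.3 (lmFit, contrasts.fit, eBayes) fitted 1 model of the 4 group means (6 residual and 4.89 prior degrees of freedom). P-values were adjusted by Benjamini-Hochberg across the 19938 genes, with calls at 0.05. A pair of arrays was averaged where its robust SD was under 60% of every other pair's. Separate cultures are nowhere stated, so the p-values may reflect technical spread alone, and precision is limited by the number of arrays. Named genes were Myb, the 25 largest called rises and falls without array overlap (predicted, small RNA and olfactory or vomeronasal receptor genes left out), and for 50 gene lists every called member and up to 4 others with the smallest p. The comparison, the members and the lists were chosen with earlier results of these data known. Of 1354 list entries 1272 were tested. Alternatives were scaling, filtering, moderation, array weights, the arrays that entered the fit, a replicate block, leaving out each replicate and, chosen after seeing the data, a term for the 2 sets of KY-1 arrays that varied together and centring over probe sets with 1 symbol. On simulated data for KY-1 Myb minus GFP over 19938 genes, 73% of 200 genes changed 1.5-fold, 99.5% changed 2-fold and 100% changed 4-fold were recovered, with 5, 11 and 7 false calls. The simulated noise was normal, independent between replicates and drawn with the spreads of the fit itself. It left out the 2 sets of KY-1 arrays that varied together, so these figures need not hold for the real arrays.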

Additional observations from a re-analysis of the deposited data

Results flagged for a closer look

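For the named genes below the Myb effect in KY-1 differed from that in KY-2 by a limma test of the difference itself. Values are log2 effects in KY-1 minus those in KY-2, and none of their causes was tested. Adjusted p-values ran from 3.84e-07 for Myb to 0.0433 for Plac8.

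Among genes with a larger rise in KY-1, or a rise there against no call in KY-2, the difference was 2.63 for Cd3g, 2.45 for Klrh1, 2.21 for Itgax, 1.93 for Mcpt8 and 1.82 for Nt5e. It was 1.66 for the granzyme Gzmg, 1.32 for Pdk3, 1.24 for Tnp2, 1.09 for Psg17, 1.05 for Mef2c, 0.70 for Napsa and 0.70 for Gzma. Genes that rose in KY-1 and fell in KY-2 gave 2.93 for Csn3, 1.86 for Ccl5, 1.48 for Igf1, 1.34 for Zbtb32 and 1.07 for Cd7.

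Genes that rose in both lines and less in KY-1 gave -3.11 for Myb, -1.45 for Ifitm1, -1.30 for Mgst2, -1.29 for Plac8, -1.07 for Cxcr4 and -0.84 for Erg. Ccl4 fell in both lines and less in KY-1, with a difference of 0.75.

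Genes that fell in KY-1 and were not called in KY-2 gave -1.86 for Ncr1, -1.40 for Rasgef1b, -1.30 for Ccl20, -1.16 for B3galt2, -1.11 for Rasl11a, -1.10 for Mmp9 and -1.08 for Tdpoz2. The list goes on with -1.07 for Fam184b, -1.06 for Psd2, -1.03 for Sh3kbp1, -0.98 for Klrb1f, -0.97 for Adgre5 and -0.79 for Tnfaip3. Fads2 fell in KY-1 and rose in KY-2, with a difference of -1.25.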

How the results depend on the processing

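The Myb difference stayed between 1.53 and 1.63 under all 17 alternatives. Of the 85 other named genes with a call, 38 kept it under every alternative, and none changed sign. The counts moved more. Genes higher and lower were 231 and 211 among 8869 genes with a mean above log2 6, 242 and 242 with trended moderation, 53 and 53 with KY-1 arrays alone (105 of their 106 calls shared), and 403 and 420 with all 12 arrays as separate replicates. Leaving out GFP arrays 1 and 2, GFP array 3, Myb array 1, Myb array 2, or Myb arrays 3 and 4 gave 45, 35, 60, 76 and 69 higher, and 38, 37, 63, 66 and 71 lower. In the same order, 81, 72, 98, 118 and 105 genes changed at least 1.5-fold (134 with all replicates), and 112, 109, 127, 136 and 129 differed between lines (168 with all). Genes that differed between lines were 288 among brighter genes, 362 with trended moderation and 427 with 12 separate replicates. Where 1 GFP replicate remained, it was assumed to vary like the other groups. Median centring gave 139 higher and 83 lower, and centring over probe sets with 1 symbol 100 and 103. Array numbers did not pair: deviations of KY-1 arrays with the same number correlated at -0.23, -0.36 and -0.47. GFP arrays 1 and 2 varied with Myb arrays 3 and 4 (0.38 to 0.40), and GFP array 3 with Myb arrays 1 and 2 (0.27 and 0.43). Deviations offset each other within a group, so the values of GFP array 3 largely mirror those of GFP arrays 1 and 2. A replicate block on all 12 arrays gave 175 higher and 175 lower, with Myb at 1.60, and a term for those sets, chosen after seeing the data, 104 and 92. Signal below the array medians limits the size of 27 rises and 34 falls.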

Other observations

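Outside the named genes of the comparison 158 genes were called in KY-1, 79 higher and 79 lower. The 7 below were picked from them after their values were seen. Mt1 and Mt2 encode metallothioneins, small proteins that bind zinc and copper, and both were bright with either vector. Mt2 was at 11.72, 11.74 and 11.74 with GFP and 12.50, 12.49, 12.61 and 12.58 with Myb (1.73-fold, limma adjusted p = 0.00543), and Mt1 was at 11.29, 11.32 and 11.25 against 11.84, 11.81, 11.95 and 11.97 (1.5-fold, limma adjusted p = 0.00701). Both calls were lost without GFP arrays 1 and 2 (0.0593 for Mt2 and 0.0577 for Mt1) or GFP array 3 (0.0614 and 0.0892). Cers6, a ceramide synthase, rose 1.85-fold from 8.08, 8.12 and 8.13 to 9.0, 9.0, 9.02 and 9.02, and Creg1, a glycoprotein of lysosomes, rose 1.74-fold from 7.49, 7.59 and 7.39 to 8.26, 8.27, 8.24 and 8.30 (limma adjusted p = 0.000164 and 0.000501). KY-2 differences were 0.17 for Cers6 and -0.12 for Creg1, and the effects differed between lines (limma adjusted p = 0.00801 and 0.00225).

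Signalling and junction genes were among the falls. Gng2, a gamma subunit of G proteins, went from 7.55, 7.57 and 7.56 to 6.78, 6.80, 6.85 and 6.91 (1.67-fold, limma adjusted p = 0.000863). Gja1, the gap junction protein connexin 43, went from 6.93, 6.99 and 6.86 to 6.19, 6.12, 6.01 and 5.91 (1.77-fold, limma adjusted p = 0.00205). Both also fell in KY-2, by 0.63 and 0.64 log2 (limma adjusted p = 0.0011 and 0.00444). Inpp4b, a phosphatase of inositol lipids, was at 8.72, 8.76 and 8.73 against 8.10, 8.21, 8.18 and 8.25 (1.48-fold lower, limma adjusted p = 0.00432), a call lost without GFP arrays 1 and 2 (0.053) or GFP array 3 (0.0531), and its KY-2 difference was -0.03.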
